A study of Mus musculus with 8 samples.

Results

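The genes described here encode the proteins of the mitochondrial ribosome, read from poly(A) RNA sequencing of mouse epididymal white fat. Members were the rows of the expression table whose symbol begins with Mrpl or Mrps and a number. Of 81 such symbols, 4 ended in -ps, the mark of a pseudogene, and were left out. The other 77 all had a mean of at least 0.5 FPKM (fragments per kilobase of exon per 1000000 mapped fragments) over the 8 libraries, so every member was tested, among 14400 genes tested and 28295 in the table. By name, 48 belong to the large subunit and 29 to the small subunit. The lowest members were Mrpl47 with a mean of 1.29 FPKM and Mrps35 with 1.56 FPKM, and no member lay just outside the threshold.

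The libraries fell into 2 groups of 4. The KO group came from male mice that carry AdipoQ-Cre and Cul3-flox/flox, in which the adiponectin promoter drives Cre in adipocytes, so the other cells of the fat pad are not targeted. The WT group came from male mice with Cul3-flox/flox and is described without Cre. Both groups had eaten a Western diet for 8 weeks and were fasted for 6 h before the fat was taken. The labels give no ages and do not tie libraries to animals or litters, so p-values measure the spread between these libraries, and each mean below has n = 4.

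Mitochondria carry ribosomes of their own, which make the few proteins encoded in mitochondrial DNA, all of them subunits of the respiratory chain and the ATP synthase. The ribosomal RNAs come from mitochondrial DNA, while every protein of both subunits is encoded in the nucleus, made in the cytosol and imported. Some of these proteins descend from bacterial ribosomal proteins and others are found only in mitochondrial ribosomes. In white fat, mitochondria supply the acetyl units and the energy for lipid synthesis and oxidise part of the fatty acids that lipolysis releases. Cullin 3, the targeted protein, is the scaffold of ubiquitin ligases that mark proteins such as NRF2 for destruction.

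With FPKM as deposited, Cul3 transcript did not differ detectably by label. It stood at 10.6, 11.2, 13.2 and 13.0 FPKM in the KO-labelled libraries, against 11.4, 9.66, 12.4 and 11.5 FPKM in the WT libraries, and the groups overlapped. The log2 fold change was 0.09 ± 0.10 (SE; adjusted p = 0.520 in limma; exact two-sided permutation p = 0.486 over 70 splits). With library sums of 1000000 it was called higher in the KO-labelled libraries (0.37, adjusted p = 0.0477), as it was when scaled to listed reads (0.33, adjusted p = 0.0398). A gene-level value cannot show the loss of floxed exons, so the labels are used below as given. The libraries differed in how much of the sequencing the listed genes held. Reads recovered from the FPKM steps gave 15.2 M to 18.7 M reads in listed genes in KO-labelled libraries and 17.7 M to 19.7 M in WT libraries. These were 62.6% to 66.1% of the total used for scaling in KO-labelled libraries and 74.1% to 78.7% in WT libraries, so a scaling to listed genes lifts all KO-labelled values. Counts below are for FPKM as deposited unless another scaling is named.

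Many genes of the mitochondrial ribosome were lower in the KO-labelled fat, and with FPKM as deposited none was called higher. Of the 77 members, 34 (44.2%) fell and 0 rose at an adjusted p under 0.05, against 18.6% of the 14400 tested genes called lower and 11.7% called higher. The large subunit had 20 of 48 members lower (41.7%) with a median log2 fold change of −0.32, and the small subunit had 14 of 29 lower (48.3%) with a median of −0.27. Without WT library 1 these counts were 12 and 9, and without WT library 2 the small-subunit count was 9. The all-gene medians of these fits were −0.03 and −0.02, and their whole-table counts of lower genes are not given here. With all libraries the median of all tested genes was −0.02. Among the 12296 tested genes annotated as protein-coding, 20.4% were lower and 12% higher. Changes were modest: the members called lower had KO-labelled levels of 0.448 to 0.861 times the WT level, with a median of 0.691.

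Summed over the large-subunit members, expression was 381 ± 34.4 FPKM in KO-labelled libraries and 512 ± 55.9 FPKM in WT libraries (SD, n = 4 each). For the small subunit it was 183 ± 16.7 FPKM in KO-labelled libraries and 263 ± 21.9 FPKM in WT libraries. As deposited, the sums did not overlap. The highest KO-labelled sum of the large subunit was 414 FPKM and the lowest WT sum was 459 FPKM. For the small subunit they were 204 FPKM and 243 FPKM. Sums under other scalings are not given here. Scaled to listed reads, the members' median log2 deviations from the WT mean overlapped between the groups. For the large subunit KO library 1 stood at 0.0008, above WT library 3 at −0.11. For the small subunit these libraries stood at 0.03 and −0.09. With FPKM as deposited, 70 of the 77 members had a fold change below 0, against 52.7% of tested genes. For 29 members every KO-labelled library lay below every WT library, a pattern that 19.1% of tested genes showed. Of these 29 members, 26 were called, and Mrpl32, Mrpl13 and Mrpl36 were not. In bulk tissue, fewer cells of a type and less RNA per cell cannot be told apart.

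**Figure D1:**
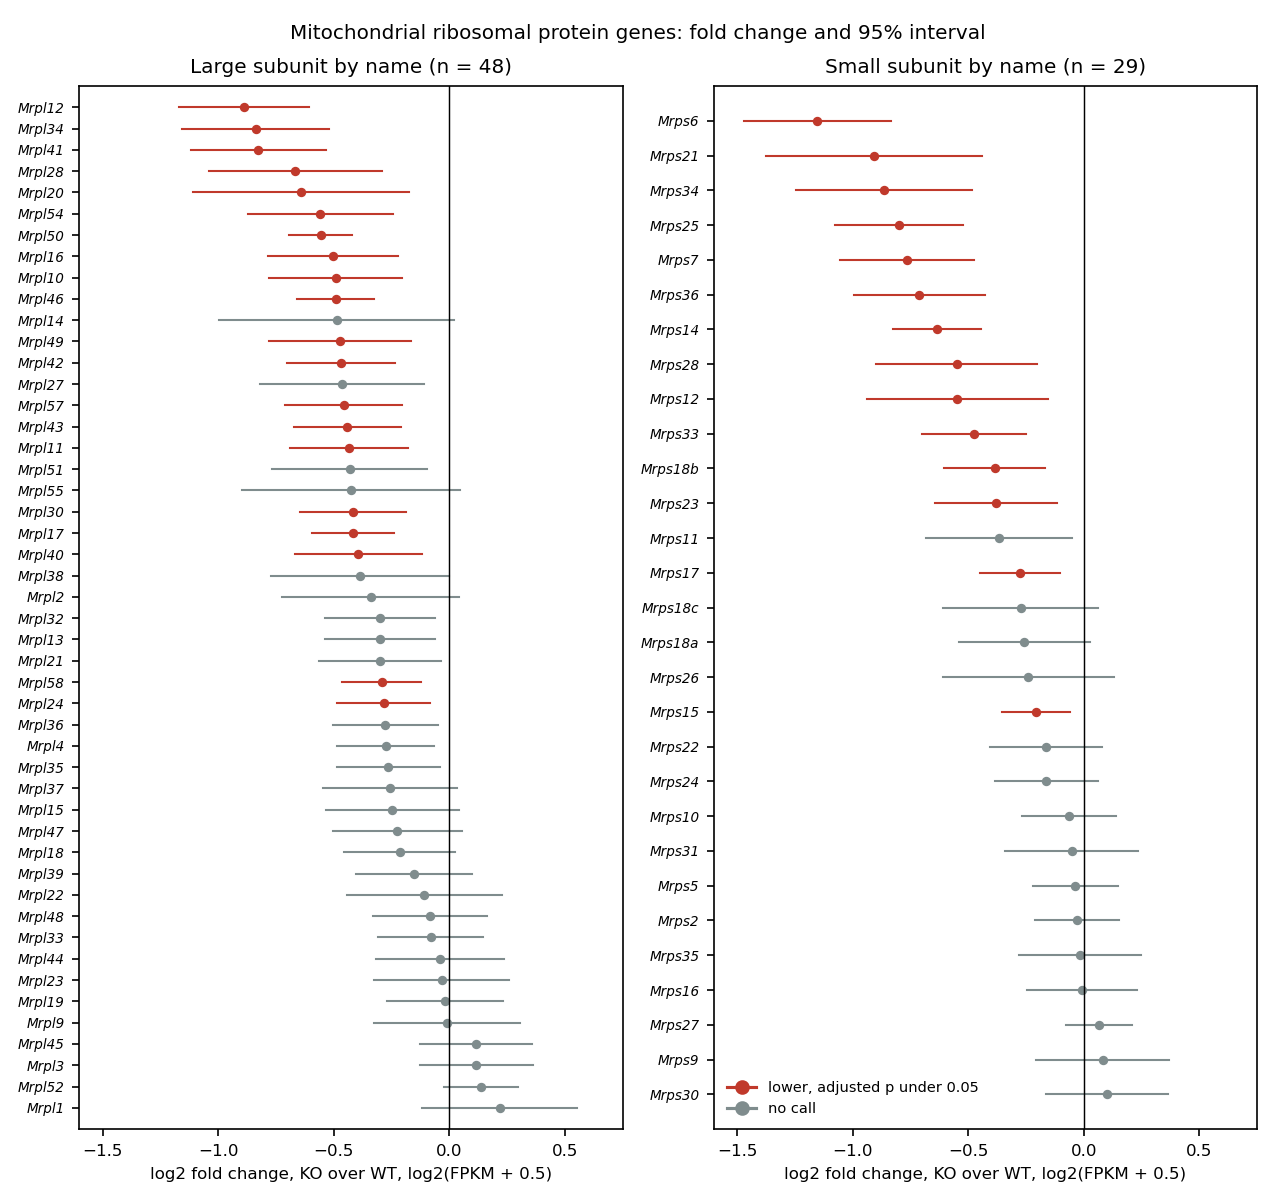
Log2 fold change (KO-labelled over WT, on log2(FPKM + 0.5)) with its 95% interval for each of the 77 members, the large subunit on the left and the small subunit on the right, each ordered by its estimate from lowest to highest. Members called lower are red: 20 in the left panel and 14 in the right, and no member was called higher.

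The scaling decides how many members count as lower. When each library was scaled so that its FPKM values summed to 1000000, 6 large-subunit and 7 small-subunit members were called lower, beside 8.26% of all tested genes. Under it 6 members were called higher, Mrpl1, Mrpl3, Mrpl45, Mrpl52, Mrps27 and Mrps9, beside 29.3% of all tested genes. The all-gene median itself moved to 0.24, and the subunit medians to −0.08 and −0.02. Scaling to the reads in listed genes gave 5 and 7 members lower (8.79% of all tested genes), 5 higher (the same without Mrps9; 29.1% of all tested genes) and an all-gene median of 0.19. A single factor per library moves all its genes nearly alike, so the members' distance from the all-gene median is fixed by construction, apart from the pseudocount. As deposited, the large-subunit median lay −0.30 and the small-subunit median −0.25 from it, and 66 of the 77 members lay below it. Calls of 12 members held under both of these scalings and also without each library in turn: Mrpl12, Mrpl34, Mrpl41, Mrpl46, Mrpl50, Mrps6, Mrps7, Mrps14, Mrps21, Mrps25, Mrps34 and Mrps36.

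**Figure D2:**
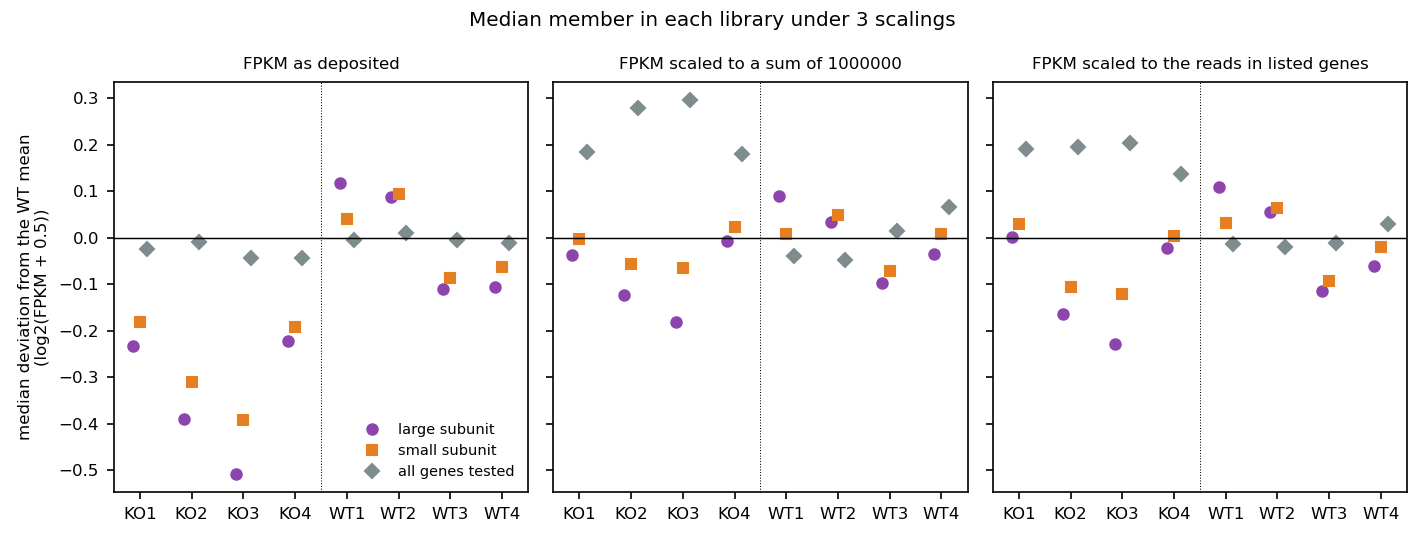
Median deviation from the WT mean (log2(FPKM + 0.5)) of the large-subunit members, the small-subunit members and all tested genes in each library, as deposited, with every library summing to 1000000, and divided by the reads that listed genes hold. As deposited, KO library 3 is lowest at −0.51 for the large subunit and the all-gene medians stay near 0, while under the other scalings the all-gene medians of the KO-labelled libraries stand well above 0.

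Promoters of 3 members with some of the firmest calls show the kinds of start region these genes have. Each line gives the 250 bases before the transcription start from RefSeq on GRCm38.p6, read 5′ to 3′ on the gene's strand. Capitals mark a match to the ETS-family motif CCGGAA, bound by GABPA, in Mrpl50 (chr4:49521084-49521333, minus strand), 72 bases before the start. In Mrpl12 (chr11:120484387-120484636, plus strand) they mark a match to the NRF1 motif (GCGCA, then any base, then GCGC), read on the opposite strand, 81 bases before the start. In Mrps6 (chr16:92058086-92058335, plus strand) neither motif was found. GABPA and NRF1 are factors known for binding promoters of nuclear genes for mitochondrial proteins.
Mrpl50: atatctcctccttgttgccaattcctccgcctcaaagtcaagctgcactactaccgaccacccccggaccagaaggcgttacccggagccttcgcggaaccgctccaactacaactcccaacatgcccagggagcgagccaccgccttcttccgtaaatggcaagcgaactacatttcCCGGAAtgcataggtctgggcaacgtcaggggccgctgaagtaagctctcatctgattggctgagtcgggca
Mrpl12: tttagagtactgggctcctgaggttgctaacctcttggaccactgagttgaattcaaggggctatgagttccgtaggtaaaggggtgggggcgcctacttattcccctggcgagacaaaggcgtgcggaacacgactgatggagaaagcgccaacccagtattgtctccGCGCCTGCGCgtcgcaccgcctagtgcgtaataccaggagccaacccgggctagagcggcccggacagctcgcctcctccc
Mrps6: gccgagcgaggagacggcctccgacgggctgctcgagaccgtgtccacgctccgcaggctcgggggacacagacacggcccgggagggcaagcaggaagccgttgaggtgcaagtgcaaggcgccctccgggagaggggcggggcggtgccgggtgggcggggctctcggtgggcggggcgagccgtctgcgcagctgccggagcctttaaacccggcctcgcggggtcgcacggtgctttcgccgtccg

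A RefSeq promoter (250 bases before to 50 after the start) was found for 68 of the 77 members, and both strands were searched. CCGGAA was in 38 of the 68 (55.9%), against 27.9% of 10130 promoters of tested genes. It was about as frequent in members called lower (17 of 31, 54.8%) as in members with no call (21 of 37, 56.8%). The NRF1 motif was in 13 of the 68 (19.1%), against 10.2% of promoters of tested genes, and in 5 of the 31 called lower and 8 of the 37 with no call. The YY1 motif AAGATGGCG, bound by a zinc-finger factor, was in 8 of the 68 (11.8%) against 3.19%. It was in 1 of the 31 called lower and in 7 of the 37 with no call. GGGCGG, the core of the SP1 site, was in 50% of members against 63.3%, and CCAAT was in 38.2% against 38.5%. TATAAA was in 5.88% against 7.44% and the E-box CACGTG in 7.35% against 10.1%. A match is a string of letters and not a bound site, and none of these shares was tested.

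In the large subunit, the stalk that recruits translation factors is built by Mrpl10, its anchor, and copies of Mrpl12. Mrpl12 (ENSMUSG00000039640, chr11:120484613-120489065, GRCm38) had 8.83, 8.23, 7.09 and 7.59 FPKM in KO-labelled libraries, against 15.8, 18.6, 13.0 and 13.4 FPKM in WT libraries. All KO-labelled libraries lay below all WT libraries, and the log2 fold change was −0.89 ± 0.12 (adjusted p = 0.00121), the lowest in the large subunit. Its anchor Mrpl10 had 13.7, 15.0, 13.0 and 19.0 FPKM in KO-labelled libraries, against 23.3, 22.5, 21.3 and 18.5 FPKM in WT libraries. KO library 4 stood above WT library 4, so the groups overlapped, and the fold change was −0.49 ± 0.13 (adjusted p = 0.0198). With sums of 1000000 Mrpl10 lost its call (−0.23, adjusted p = 0.137), and it also lost it without KO library 3 (adjusted p = 0.0575), WT library 1 (0.0599) or WT library 2 (0.0520).

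Mrpl50 and Mrpl46 are large-subunit proteins with no bacterial counterpart. Mrpl50 (ENSMUSG00000044018, chr4:49512596-49521093, GRCm38) had 7.61, 8.12, 7.56 and 8.12 FPKM in KO-labelled libraries, against 12.1, 11.7, 11.7 and 11.7 FPKM in WT libraries. Libraries within a group were nearly equal, and the fold change of −0.56 ± 0.06 had the smallest adjusted p of any member (0.000377). Mrpl46 had 4.63, 4.24, 3.82 and 4.57 FPKM in KO-labelled libraries, against 6.38, 6.17, 6.23 and 6.24 FPKM in WT libraries. The groups were again apart, at −0.49 ± 0.07 (adjusted p = 0.00174). Mrpl46 shares exon sequence with Mrps11 on the opposite strand, and without strand in the counting their reads may be shared. Mrps11 was at −0.37 with an adjusted p of 0.0761.

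Mrpl41, a protein without a bacterial counterpart, had 12.8, 12.0, 9.02 and 11.0 FPKM in KO-labelled libraries, against 22.6, 22.3, 17.3 and 18.6 FPKM in WT libraries. Mrpl34, the counterpart of bacterial L34, had 18.9, 19.4, 15.7 and 20.0 FPKM in KO-labelled libraries, against 41.9, 33.2, 26.4 and 33.4 FPKM in WT libraries. Neither gene's groups overlapped, and KO library 3 and WT library 3 were the lowest of their groups for both. The fold changes were −0.83 ± 0.13 for Mrpl41 (adjusted p = 0.00215) and −0.84 ± 0.14 for Mrpl34 (adjusted p = 0.00299). Mrpl17, the counterpart of bacterial L17, fell by 0.42 ± 0.08 on the log2 scale (adjusted p = 0.00508), and Mrpl54 fell by 0.56 ± 0.14 (adjusted p = 0.0170). Both lost their calls with sums of 1000000, Mrpl17 at −0.18 (adjusted p = 0.0858) and Mrpl54 at −0.30 (adjusted p = 0.0675). Mrpl27, which in bacteria reaches towards the peptidyl transferase centre, had a similar estimate of −0.46 ± 0.16 with an adjusted p of 0.0522. It passed the test without WT library 3 (adjusted p = 0.0172) or WT library 4 (adjusted p = 0.0464). Mrpl27 did not pass with sums of 1000000 (−0.20, adjusted p = 0.272) or without WT libraries 1 and 2 (−0.18, adjusted p = 0.297).

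The members at the other end of the large subunit were Mrpl1, Mrpl52 and Mrpl3. Mrpl1 forms the mobile stalk beside the exit site for transfer RNA. It had 2.61, 3.04, 3.65 and 4.65 FPKM in KO-labelled libraries, against 3.14, 2.63, 2.93 and 2.79 FPKM in WT libraries, and the 95% interval of its log2 fold change was −0.12 to 0.55 (adjusted p = 0.294). Mrpl52, which bacteria lack, had 14.5, 14.8, 16.4 and 14.2 FPKM in KO-labelled libraries, against 12.9, 13.2, 13.8 and 14.3 FPKM in WT libraries, with an interval of −0.02 to 0.30 (adjusted p = 0.174). Its groups overlapped only through KO library 4 and WT library 4. Mrpl3, which in bacteria reaches towards the peptidyl transferase centre too, stood at 0.12 (adjusted p = 0.439). Each of these had a positive estimate under every scaling tried, and each passed the test with sums of 1000000.

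In the small subunit, the lowest fold change of all 77 members was that of Mrps6, which sits on the platform as bacterial S6 does. Mrps6 (ENSMUSG00000039680, chr16:92058270-92112227, GRCm38) had 14.6, 10.3, 13.6 and 17.3 FPKM in KO-labelled libraries, against 32.1, 33.1, 28.7 and 30.7 FPKM in WT libraries. The groups were far apart, at −1.15 ± 0.14 (adjusted p = 0.000684), and KO-labelled fat held 0.448 times the WT level. Mrps6 shares exon sequence with Slc5a3 on the same strand, a transporter of myo-inositol. Slc5a3 stood at 5.21 ± 1.18 FPKM in KO-labelled libraries and 5.61 ± 0.550 FPKM in WT libraries, at −0.12 with an adjusted p of 0.567.

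Mrps14 and Mrps7 belong to the head of the subunit, where their bacterial counterparts lie. Mrps14 (ENSMUSG00000058267, chr1:160195215-160202170, GRCm38) had 4.87, 5.60, 5.93 and 5.80 FPKM in KO-labelled libraries, against 8.71, 9.17, 9.57 and 8.10 FPKM in WT libraries. Mrps7 had 12.5, 11.3, 8.91 and 10.4 FPKM in KO-labelled libraries, against 21.1, 20.1, 15.5 and 17.9 FPKM in WT libraries. Both genes were lower in every KO-labelled library than in every WT library, Mrps14 at −0.64 ± 0.08 (adjusted p = 0.000951) and Mrps7 at −0.76 ± 0.13 (adjusted p = 0.00298). The neighbours that overlap Mrps7, Gga3 and Mif4gd, stood at 0.27 (adjusted p = 0.0963) and −0.16 (adjusted p = 0.261).

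Mrps25 and Mrps34 have no bacterial counterpart. Mrps25 had 1.26, 1.15, 0.797 and 0.934 FPKM in KO-labelled libraries, against 2.30, 2.33, 2.14 and 1.87 FPKM in WT libraries. Mrps34 had 4.79, 5.95, 3.78 and 5.01 FPKM in KO-labelled libraries, against 11.1, 11.0, 7.99 and 7.33 FPKM in WT libraries. Neither gene's groups overlapped, and KO library 3 was the lowest for both. Mrps25 was at −0.80 ± 0.12 (adjusted p = 0.00190) and Mrps34 at −0.86 ± 0.17 (adjusted p = 0.00599). Without WT libraries 1 and 2, Mrps34 was at −0.61 with an adjusted p of 0.0569. Exons of Mrps25 overlap Nr2c2 on the opposite strand. Those of Mrps34 overlap Mapk8ip3 and Nme3, 1 of them a protein-coding gene on the opposite strand.

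Mrps21, the counterpart of bacterial S21, had the highest mean of all members, 28.2 FPKM. It had 30.6, 17.9, 14.1 and 17.2 FPKM in KO-labelled libraries, against 36.9, 37.3, 33.6 and 37.5 FPKM in WT libraries. KO library 1 stood well above the other KO-labelled libraries and still below every WT library, and the fold change was −0.91 ± 0.21 (adjusted p = 0.0118). Mrps21 lost its call without WT libraries 1 and 2 (−0.88, adjusted p = 0.0993) and also without KO library 4 and WT library 4. Mrps36 bears a small-subunit name, but its product is now known as a component of the 2-oxoglutarate dehydrogenase complex of the citric acid cycle. It had 5.33, 5.48, 4.99 and 3.55 FPKM in KO-labelled libraries, against 8.62, 7.90, 7.64 and 8.46 FPKM in WT libraries, with the groups apart at −0.71 ± 0.12 (adjusted p = 0.00380).

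Bacteria have a single S18, whereas mammals have 3 paralogs that take different places. Mrps18b fell by 0.39 ± 0.10 on the log2 scale (adjusted p = 0.0169), while Mrps18a was at −0.26 (adjusted p = 0.150) and Mrps18c at −0.27 (adjusted p = 0.192). Mrps18b lost its call with sums of 1000000 (−0.15, adjusted p = 0.322) and with listed reads (−0.16, adjusted p = 0.202). The differences between the paralogs were not tested. The highest estimates of the small subunit were those of Mrps30 at 0.10 (adjusted p = 0.538), Mrps9 at 0.08 (adjusted p = 0.650) and Mrps27, a pentatricopeptide repeat protein, at 0.07 (interval −0.08 to 0.21, adjusted p = 0.460). Mrps35 was at −0.02 (adjusted p = 0.927).

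**Figure D3:**
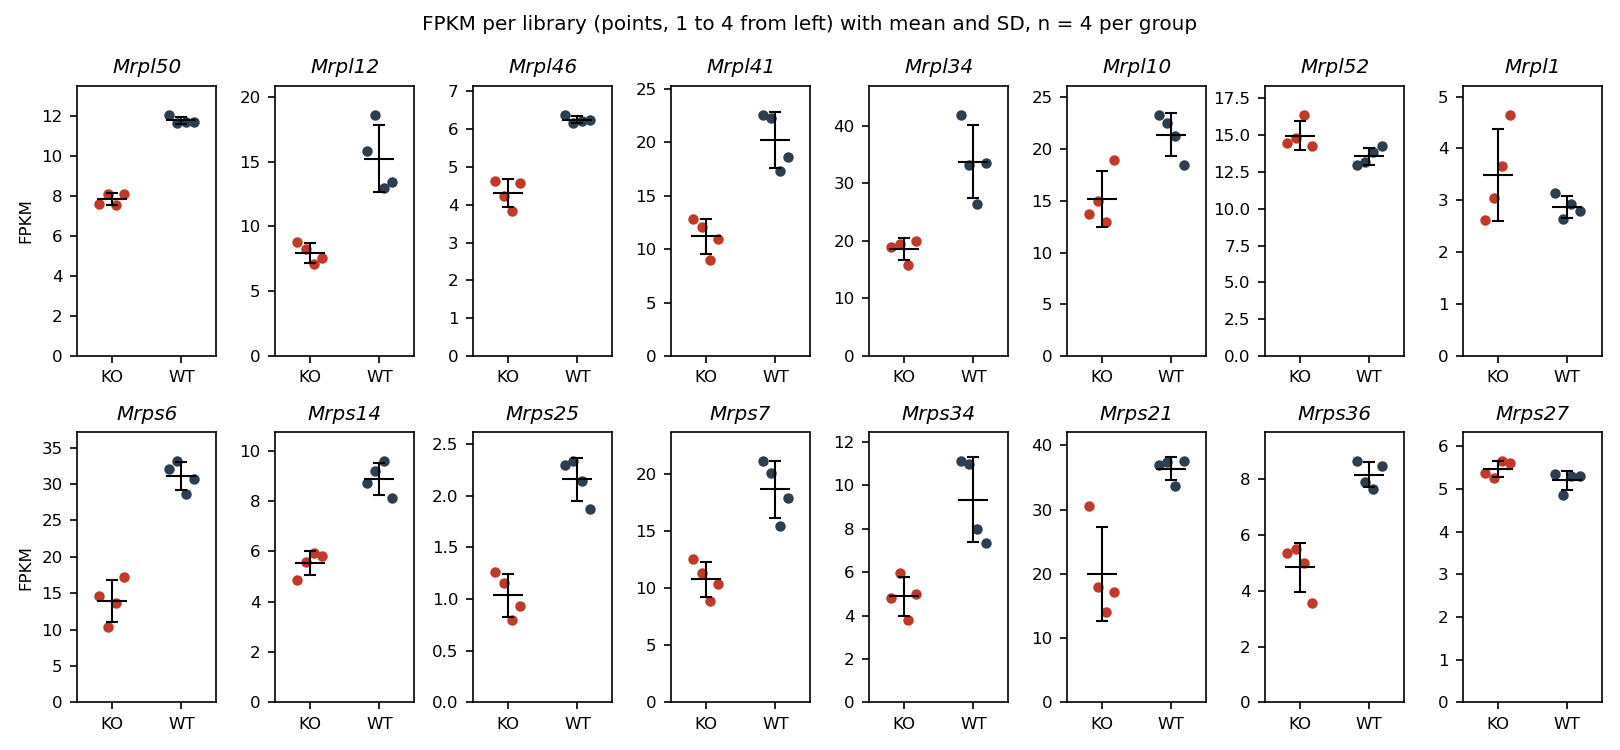
FPKM of 16 members in each library (points, libraries 1 to 4 from the left within a group) with the group mean and SD, n = 4 per group, and every axis from 0. Mrpl50, Mrpl12, Mrps6 and Mrps14 show groups far apart, Mrpl10 overlaps through KO library 4, and Mrpl52, Mrpl1 and Mrps27 have KO-labelled means above the WT means within overlapping groups.

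Names and structures do not match everywhere. Mammalian structures place the products of Mrps18a and Mrps30 in the large subunit, and Mrps36 in neither. By structure, 20 of 50 large-subunit members (median −0.30) and 13 of 26 small-subunit members (median −0.27) were lower. Members with a bacterial counterpart had 18 of 45 lower (median −0.30) and those without had 14 of 28 lower (median −0.38). With sums of 1000000 these counts were 7 and 5, with 3 members of each class higher. The difference between these classes was not tested.

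The fold change of a member went with its length and its level. Members with under 1500 bases of exon had a median log2 fold change of −0.49 (9 of 19 lower), against −0.18 for protein-coding genes of that length, of which 25.5% were lower. From 1500 to 2500 bases the members' median was −0.44 (15 of 19 lower), against −0.11 and 24.8%. From 2500 to 4000 bases it was −0.28 (7 of 17 lower), against −0.09 and 23.7%. Over 4000 bases it was −0.15 (3 of 22 lower), against 0.01 and 17.2%. In each length class the members' median lay below that of protein-coding genes. Across the 77 members, which share libraries and depth, fold change and log10 exon length gave r = 0.47 (rho = 0.49), and fold change and log2 mean FPKM gave r = −0.53 (rho = −0.55). Over 12296 protein-coding genes these were 0.10 (rho = 0.14) and −0.19 (rho = −0.24). These are descriptions across genes, which are not independent replicates, and the part of length in the result was not tested. FPKM divides by exon length, so level and length are not separate here. The 0.5 added before the log also draws the fold changes of low members towards 0.

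**Figure D4:**
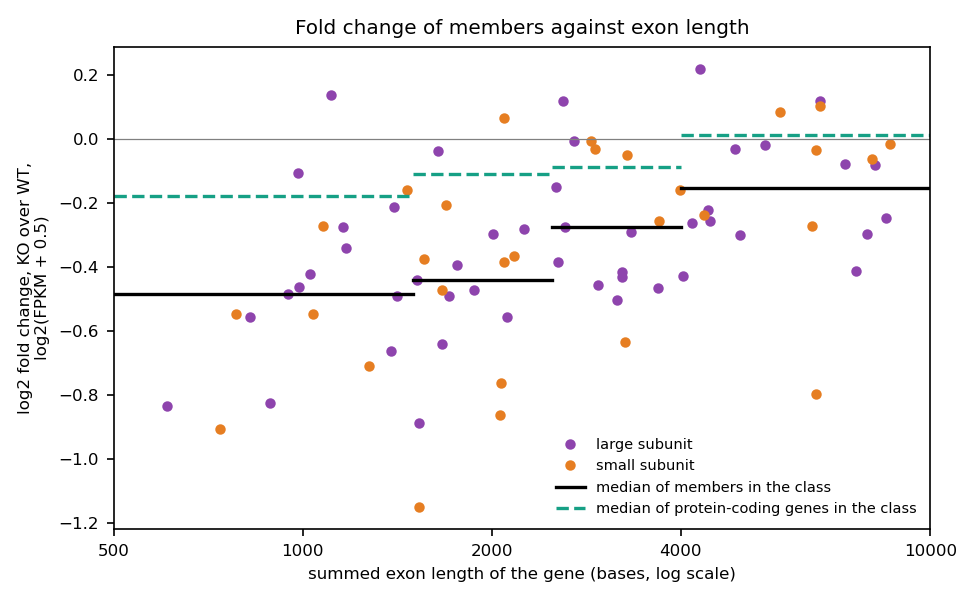
Log2 fold change of each member (KO-labelled over WT) against the summed exon length of its gene on a log axis, with the median of members (black) and of protein-coding genes (dashed) in 4 length classes. The members' medians rise from −0.49 in the shortest class to −0.15 in the longest, and lie below the dashed line in each class.

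Many members share a start region with a neighbour. A protein-coding gene started head to head within 1000 bases on the opposite strand for 23 of the 77 members (29.9%). Among protein-coding genes it was 1430 of 12296 (11.6%). Pairs whose starts overlap by more than a short stretch, as those of Mrpl46 and Mrps11 do, were not counted. Of these 23 members, 12 were lower, with a median of −0.42, and of the 54 without such a partner 22 were lower, with a median of −0.27. Of the 23, 4 were lower and 1 higher with sums of 1000000, and 9 of the 54 were lower and 5 higher. The difference between them was not tested. Of the 21 partners tested, 1 was lower (Psma2, beside Mrpl32) and 2 were higher (Pnpla7, beside Mrpl41, and Fau, beside Mrpl49), with a median of 0.04. Mrpl50 starts 83 bases from Zfp189, a zinc-finger gene, which stood at 0.28 (adjusted p = 0.220). Exons of 20 members overlap a protein-coding gene on the opposite strand, and 7 of these 20 were called, so reads may be shared there.

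The rest of the mitochondrial translation machinery was read by list, and differences between the lists were not tested. As deposited, 18.6% of all tested genes were lower and 11.7% higher, and with sums of 1000000 these shares were 8.26% and 29.3%. Of 5 mitoribosomal proteins found under other names, 3 were lower: Aurkaip1 (−0.44, adjusted p = 0.00653), Dap3, a GTP-binding protein of the small subunit (−0.36, adjusted p = 0.0203), and Gadd45gip1 (−0.50, adjusted p = 0.0313). The median of the 5 was −0.37, and 0 of them were called with sums of 1000000. Of 26 genes for ribosome assembly and rRNA modification, 3 were lower, Trub2, the GTPase Mtg1 (−0.38, adjusted p = 0.0187) and Mpv17l2 (−0.59, adjusted p = 0.0203), and the median was −0.07. Trub2, a pseudouridine synthase, had 2.64, 2.38, 2.63 and 2.99 FPKM in KO-labelled libraries, against 5.97, 6.00, 5.42 and 4.97 FPKM in WT libraries. Its groups were far apart, at −0.95 ± 0.09 (adjusted p = 0.000199), and it was still lower with sums of 1000000 (−0.78).

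Of 14 translation factors, 3 were lower, Tufm, Gfm1 and Mrrf, with a median of −0.06. Tufm, the elongation factor that delivers transfer RNA, was at −0.54 (adjusted p = 0.00444), and the translocase Gfm1 was at −0.37 (adjusted p = 0.0186). Mrrf, which recycles ribosomes, was at −0.29 (adjusted p = 0.0411). Of 17 mitochondrial aminoacyl-tRNA synthetases, which charge transfer RNAs, 1 was lower (Aars2, −0.27, adjusted p = 0.0448), with a median of 0.05. Of 11 genes of mitochondrial transcription and RNA processing, Elac2 was lower (−0.29, adjusted p = 0.0340), and Pnpt1 (0.46, adjusted p = 0.0188) and the packaging factor Tfam (0.31, adjusted p = 0.0378) were higher. With sums of 1000000 the medians of assembly genes, factors and synthetases were 0.20, 0.19 and 0.33, beside 0.24 for all tested genes. Then 5, 4 and 5 genes of these lists were called higher, beside 29.3% of all tested genes. Calls of lower genes were then 1, 1 and 0, those of Trub2 and Tufm, while Mtg1, Mpv17l2, Gfm1, Mrrf and Aars2 lost theirs. In the transcription list Elac2 lost its call (−0.03, adjusted p = 0.804), and 3 genes were higher and 0 lower.

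Among 9 regulators of mitochondrial biogenesis, 2 were higher and 0 lower, and with sums of 1000000, 4 were higher and 0 lower. Of all tested genes, 11.7% were higher as deposited and 29.3% with these sums. Myc, a growth regulator, had 11.7, 11.7, 14.4 and 10.1 FPKM in KO-labelled libraries, against 2.53, 3.40, 3.02 and 4.82 FPKM in WT libraries. The groups were far apart, at 1.68 ± 0.17 (adjusted p = 0.000327). The coactivator Ppargc1a was at 0.54 (adjusted p = 0.0306), from levels under 1 FPKM. The NRF1 gene, Nrf1, was at 0.14 (adjusted p = 0.332) and the nuclear receptor Esrra at −0.44 (adjusted p = 0.0662).

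Nuclear genes with respiratory chain names, assembly factors among them, had 50 of 95 lower and 0 higher, with a median of −0.46. With sums of 1000000 the counts were 20 lower and 3 higher, and the median was −0.23. Of all tested genes, 8.26% were then lower and 29.3% higher. In the fit without WT libraries 1 and 2, 6 of the 95 were lower and 0 higher, with a median of −0.31. Fewer genes of the whole table were called lower in that fit too. Cox5a, a subunit of cytochrome c oxidase, was at −0.74 ± 0.10 (adjusted p = 0.00109), the ATP synthase gene Atp5f1 at −0.62 (adjusted p = 0.00122) and Sdhaf4, an assembly factor of succinate dehydrogenase, at −0.81 (adjusted p = 0.00147). Of 82 genes with cytosolic ribosomal protein names, 18 were higher and 4 lower as deposited, with a median of 0.20. Scaled to sums of 1000000, 47 were higher and 2 lower (median 0.48), beside 29.3% and 8.26% of all tested genes. Without WT libraries 1 and 2, 2 were higher and 2 lower. Rps6 was at 0.67 (adjusted p = 0.00176). The 4 lower genes were Rpl7l1 (−0.61, adjusted p = 0.00145), Rps27l (−0.74, adjusted p = 0.00200), Rpl22l1 (−0.59, adjusted p = 0.0216) and Rps19bp1 (−0.44, adjusted p = 0.0394). The first 3 are paralogs of ribosomal protein genes, and Rps19bp1 encodes a protein that binds one. The mitochondrial rRNA of the large subunit, mt-Rnr2, was at 108 ± 29.0 FPKM in KO-labelled libraries and 207 ± 51.7 FPKM in WT libraries (−0.94, adjusted p = 0.0146). That of the small subunit, mt-Rnr1, was at 139 ± 32.6 FPKM in KO-labelled libraries and 175 ± 28.5 FPKM in WT libraries (−0.35, adjusted p = 0.173). Capture of poly(A) RNA makes rRNA values hard to compare with those of messenger RNAs.

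**Figure D5:**
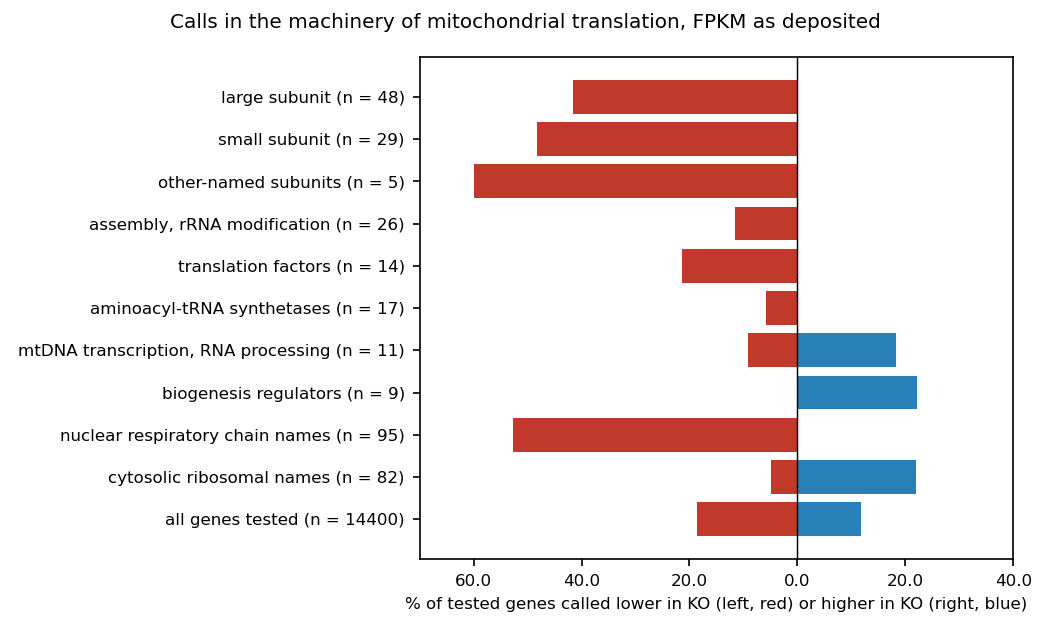
Percent of tested genes called lower (red, to the left) or higher (blue, to the right) in KO-labelled libraries, FPKM as deposited, for each subunit, the related gene lists and all tested genes. The 2 subunits stand at 41.7% and 48.3% lower beside 18.6% of all genes, and only lists of mitochondrial transcription, biogenesis regulators and cytosolic ribosomal names, besides all genes, have a blue bar.

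Libraries of a group were not equal in these genes. KO library 3 was the lowest of its group in 47 of the 77 members and KO library 2 in 18, while KO library 1 was the highest in 35 and KO library 4 in 30. KO library 3 also had the lowest FPKM total over all genes (175006) and the lowest share of reads in listed genes (62.6%). The same ranks over all tested genes are not given here. Among WT libraries, library 2 was the highest in 38 members and library 1 in 29, and library 3 was the lowest in 32 and library 4 in 31. Median deviations of the large-subunit members from the WT mean were −0.23, −0.39, −0.51 and −0.22 in KO-labelled libraries 1 to 4, against 0.12, 0.09, −0.11 and −0.11 in WT libraries 1 to 4.

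Markers of cell types moved with the labels and, in part, with this order. The summed level of 5 adipocyte markers (5 lower) was 1739, 1471, 1373 and 1884 FPKM in KO-labelled libraries 1 to 4, against 4710, 4796, 3726 and 3572 FPKM in WT libraries 1 to 4. Within both groups the 2 libraries with the higher sums were those with the higher member levels, and also those with the higher FPKM totals over all genes. These totals were 192807, 182517, 175006 and 190359 in KO-labelled libraries 1 to 4, against 229614, 234141, 220771 and 211717 in WT libraries 1 to 4. KO library 4 had the highest adipocyte sum of its group, but KO library 1 had the highest summed level of both subunits. Of 5 endothelial markers 5 were lower, with sums of 99.8 to 119 FPKM in KO-labelled libraries and 147 to 208 FPKM in WT libraries. Of 6 macrophage markers 2 were higher, with sums of 143 to 334 FPKM in KO-labelled libraries and 85.2 to 325 FPKM in WT libraries, where WT library 4 was the highest and KO library 4 the lowest of its group. Of 5 liver markers 3 were lower, with sums of 4.40 to 17.4 FPKM in KO-labelled libraries and 16.2 to 453 FPKM in WT libraries, WT libraries 2 (453 FPKM) and 1 (122 FPKM) being the highest. Of 3 stromal and 2 mesothelial markers 0 were called (limma), of 2 muscle markers tested 1 was lower (Acta1), T and B cell markers were under the threshold, and no marker was at 0 in all libraries. With sums of 1000000, 4 adipocyte, 2 endothelial and 4 liver markers were lower and 4 macrophage markers higher. Of all tested genes, 18.6% were lower and 11.7% higher as deposited, and 8.26% and 29.3% with these sums. When WT libraries 1 and 2 were left out, 2 adipocyte, 3 endothelial, 1 liver, 1 mesothelial and 1 muscle marker were lower. In that fit 1 macrophage marker was higher.

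The part of cell makeup in the members' levels was not tested. Without WT libraries 1 and 2, which hold most of the liver transcripts, 5 large-subunit and 5 small-subunit members were called lower, the median log2 fold changes being −0.24 and −0.22. The 10 members were Mrpl12, Mrpl34, Mrpl41, Mrpl46, Mrpl50, Mrps6, Mrps7, Mrps14, Mrps25 and Mrps36. In the fit without WT libraries 1 and 2 fewer genes were called lower over the whole table too, and the all-gene median was −0.03. Without KO library 4 and WT library 4, 32 members were called lower, of which 28 were among the 34. The all-gene median was then −0.01, and the whole-table count of lower genes in this fit is not given here.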

How the data were processed

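RNA from 8 libraries was purified with TRIzol and poly(A) capture, per the labels' protocols. The submitters' processing notes list build mm10, HISAT2 2.0.5 and featureCounts with no roles. Annotation release and strand setting are not given in the sources used here. FPKM values, with 1 column per library, were deposited by the authors. FPKM are not counts, so log2(FPKM + 0.5) was fitted with limma 3.58.1 (trend and robust moderation, R 4.3.3), KO over WT, for all 14400 genes with a mean of at least 0.5 FPKM, with Benjamini-Hochberg adjustment over them; calls used an adjusted p under 0.05. Fold changes on this scale understate the change of low genes. Reads were recovered with GENCODE M21 exon lengths (97.8% to 98.0% of values whole within 0.02 reads), giving 99 to 1253 reads per library for 72 of the members, and were fitted with voom as an alternative.

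Exon overlaps, neighbours and gene coordinates are from GENCODE M21 (GRCm38, the assembly of mm10), 1-based. The test was checked on simulated data with independent noise for each gene. The simulation held no differences between whole libraries, so it cannot speak to the scaling, and its outcome is not given here. Named members were, in each subunit, the 6 with the smallest adjusted p, the 3 highest in fold change and the 3 highest in mean FPKM, with those nearest the threshold, the paralogs of Mrps18, Mrpl10, Mrpl12 and Mrps36; from each related list, up to 3 by adjusted p. Slc5a3, Gga3, Mif4gd, Zfp189, Mrps11, Esrra, Nrf1, Rpl22l1 and Rps19bp1 were added after their values were seen. Members and lists were chosen with earlier results of these data known. Alternatives were other pseudocounts, filters, scalings, moderation, a replicate block and left-out libraries. Same-numbered libraries did not deviate together (correlations of -0.06, -0.13, 0.17 and -0.32), which cannot exclude a pairing that the labels leave out.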

Additional observations from a re-analysis of the deposited data

Results flagged for a closer look

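In each group of 4 libraries, the gap between the highest or lowest value and its nearest neighbour was set against the whole range, for the FPKM of every member. Of 154 groups, 12 had a library standing apart, where chance gives about 1 in 20. Among KO-labelled libraries these were library 1 for Mrpl33 (3.07 FPKM), Mrps23 (13.5 FPKM) and Mrps12 (13.1 FPKM), library 3 for Mrps24 (10.7 FPKM), and library 4 for Mrpl9 (9.73 FPKM) and Mrps18c (7.47 FPKM). Among WT libraries they were library 1 for Mrpl50 (12.1 FPKM), library 2 for Mrpl45 (6.69 FPKM) and Mrps27 (4.87 FPKM), library 3 for Mrps21 (33.6 FPKM), and library 4 for Mrpl30 (12.4 FPKM) and Mrps5 (2.45 FPKM). The Mrpl50 value stood only just above the 11.7 FPKM of the other WT libraries, which were nearly equal.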

How the results depend on the processing

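Pseudocounts of 0.1 and 1, a minimum of 1 FPKM, protein-coding genes alone, limma without trend or robust moderation, and voom on the recovered reads of 72 members kept every direction of the named members and called 32 to 39 members lower. Mrpl27 passed the test at a minimum of 1 FPKM (adjusted p = 0.0480), among protein-coding genes (0.0430) and with voom (0.0447). It did not pass with sums of 1000000 (adjusted p = 0.272), listed reads (0.267) or quantile normalization (0.157). With no filter on low values 16 large-subunit and 9 small-subunit members were lower, more genes being adjusted for. With library sums of 1000000, 4226 genes were higher and 1190 lower over the whole table, 6 and 7 members of the large and small subunits were lower and 6 members higher, and the subunit medians were -0.083 and -0.016. Cul3 was then at 0.37 (adjusted p = 0.0477) and Mrps35 at 0.24. Dividing by listed reads, a choice made after seeing the data like voom, the coding-only fit and leaving out KO library 4 with WT library 4, gave 4185 genes higher and 1266 lower, 5 and 7 members lower, 5 higher, and medians of -0.10 and -0.038. Cul3 was at 0.33 (adjusted p = 0.0398) and Mrps35 at 0.17. Quantile normalization gave 23 members lower, 13 of them in the large subunit, and 1 member higher (Mrpl52). Median-of-ratios scaling put Mrps35 at 0.013. The cause of these changes was not tested beyond the shift of the all-gene median. Among the fits of this paragraph, whole-table counts of lower genes are given only for library sums and listed reads.

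Without WT libraries 1 and 2, with fewer samples, 722 genes were higher and 1036 lower, against 1689 and 2683 with all libraries. In that fit 5 members of each subunit were lower, and Mrps35 was at 0.041. Without KO library 4 and WT library 4, Mrps30 was at -0.0061 and Mrps9 at -0.063. Leaving out each library in turn gave 1089 to 1937 genes higher, 12 to 23 large-subunit and 9 to 13 small-subunit members lower. Its log2 fold changes ran from -0.021 to 0.16 for Mrps9 and from -0.10 to 0.037 for Mrps35. The lowest counts came without WT library 1 (12 and 9 members) and without WT library 2 (9 small-subunit members), and 21 of the 34 calls were kept in every one of these fits. With the replicate number as a block, 1113 genes were higher, 16 and 11 members were lower, and 26 of the 34 calls were kept. The labels do not say whether the numbers pair these libraries. For the replicate block and for leaving out each library in turn, whole-table counts are given here for higher genes only. Counts of higher genes are no background for members called lower. Whether the members lost calls in these fits more often than other lower genes therefore cannot be read from them. Depth limits the lowest members, which rest on 99 reads or more per library.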
